A study of Mus musculus with 10 samples.

Results

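The mRNAs of 10 mouse tubulin genes were followed here in ribosome profiling data of embryonic stem cells. They are the α-tubulin genes Tuba1a, Tuba1b and Tuba1c, the β-tubulin genes Tubb2a, Tubb2b, Tubb3, Tubb4b, Tubb5 and Tubb6, and the γ-tubulin gene Tubg1. They were chosen by name, by a rule that used no measured value, though with earlier results of these data known. All 10 were found among the 14534 coding transcripts of the deposited tables, which list 15269 transcripts in all. All 10 passed the minimum of 10 reads in at least 2 libraries that was set for every test below.

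The cells were CGR8, a mouse embryonic stem cell line of strain 129 that is grown without feeder cells. Ribosome footprints, the RNA fragments that a ribosome shields from RNAse, were sequenced from control cells and from cells given DMDA-PatA at 1 μM for 10 min, harringtonine at 2 μg/ml for 10 min or puromycin at 0.2 mg/ml for 20 min. Each of these 4 conditions had 2 libraries, and 2 further libraries of untreated cells held fragmented whole transcriptome RNA without RNAse digestion. DMSO was kept equal in all samples, cycloheximide was added only once the cells had been chilled, and the 3 drug comparisons share the same 2 control libraries.

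Microtubules are hollow filaments built from dimers of α- and β-tubulin, and mammals make each subunit from several genes, called isotypes, whose proteins are nearly alike. γ-Tubulin is no part of the filament wall but sits in a ring complex from which new microtubules grow. Cells hold their tubulin supply steady by autoregulation: when free dimers are plentiful, the factor TTC5 binds the first residues of nascent α- and β-tubulin as they leave the ribosome, and the mRNA under translation is then degraded through the CCR4-NOT complex. DMDA-PatA is a pateamine A analog that disturbs the initiation factor eIF4A, harringtonine stops ribosomes at the start of elongation, and puromycin is an aminoacyl-tRNA mimic that releases unfinished chains.

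Coding transcripts held 9559519 and 11161453 reads in the control footprint libraries, between 1027314 and 2802597 reads in the drug libraries, and 25508180 and 59271162 reads in the transcriptome libraries. The labelled cell type was checked against marker genes. All 10 pluripotency markers had at least 100 ORF reads in both control footprint libraries, with a summed level of 42772 to 45629 normalized reads. Of 8 neuron markers, 4 reached that level, with a summed level of 4197 to 4510 in footprints and 5706 to 6340 in the transcriptome. Among them Stmn2 had 2761 and 3161 footprints, and Dcx was at 0 in the footprints. Of 4 neural progenitor markers 1 reached that level, with a summed level of 1816 to 1891 in footprints and 9727 to 11343 in the transcriptome. Of 6 fibroblast markers 4 reached it as well, with a summed level of 15861 to 20932 in footprints and 164537 to 168069 in the transcriptome, where the pluripotency markers summed to 35716 to 40033. Most of the fibroblast sum was the collagen gene Col1a1, with 14343 and 14313 footprints. What part cells with fibroblast or neural markers have in the tubulin values was not tested.

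The coding sequences of the α-tubulin members are so alike that they limit what short reads can show. The 3 α-tubulin coding sequences shared between 97.6% and 98.4% of their aligned bases, and Tubb2a and Tubb2b shared 96.5%. The other pairs of β-tubulin members shared 80.8% to 86.4%, α- and β-tubulin members 54.5% to 57.4%, and Tubg1 50.6% to 55.0% with the rest. The starts of 9 coding sequences are shown because the first codons encode the residues of α- and β-tubulin that the autoregulation pathway reads. Each line gives 6 bases before the start codon and 24 bases from it, read from GRCm38 (mm10), with the first 4 codons in capitals. Tubb6 is not shown.
Tuba1a: gcaaccATGCGTGAGTGCatctccatccat
Tuba1b: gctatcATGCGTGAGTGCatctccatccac
Tuba1c: ctaaatATGCGTGAGTGCatctccatccac
Tubb2a: agcaccATGCGCGAGATCgtgcacatccag
Tubb2b: ggcaccATGCGAGAGATCgtgcacattcag
Tubb3: gtcagcATGAGGGAGATCgtgcacatccag
Tubb4b: gccgccATGAGGGAGATCgtgcacctgcag
Tubb5: gtagccATGAGGGAAATCgtgcacatccag
Tubg1: ggagcgATGCCGAGAGAAatcatcacccta
The first 4 codons were the same letters in all 3 α-tubulin members and took 4 different spellings in the 5 β-tubulin members shown.

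Of the 30-base stretches of the α-tubulin coding sequence, 873 were identical in Tuba1a, Tuba1b and Tuba1c. The stretch in which the members differ most lies at bases 670 to 699 of the ORF, and the capitals mark the bases at which they differ. Even there the Tuba1b and Tuba1c stretches were identical to each other and matched 5 places, and that of Tuba1a matched 2.
Tuba1a, bases 670 to 699: tacacTaacctAaacAgGTtGatAGgTcaA
Tuba1b, bases 670 to 699: tacacCaacctTaacCgCCtTatTAgCcaG
Tuba1c, bases 670 to 699: tacacCaacctTaacCgCCtTatTAgCcaG

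The genes lie on 7 chromosomes of GRCm38, and each member but Tubg1 has 4 exons. The α-tubulin members sit together, Tuba1b at chr15:98931425-98934565 on the minus strand, Tuba1a at chr15:98949837-98953703 on the minus strand and Tuba1c at chr15:99029891-99038110 on the plus strand. Tubb2a, at chr13:34074274-34078007, and Tubb2b, at chr13:34126748-34130354, are also neighbours, both on the minus strand. Tubb4b lies at chr2:25222160-25224702 and Tubb5 at chr17:35833921-35838306, both on the minus strand. Tubb3 at chr8:123411424-123422015, Tubb6 at chr18:67390717-67402749 and Tubg1, with 11 exons, at chr11:101119938-101126419 are on the plus strand. Their listed ORFs are of nearly equal length, from 1332 nt in Tubb5 to 1353 nt in Tuba1a, Tuba1b and Tubg1. Their listed 5′ UTRs run from 41 nt in Tubb6 to 531 nt in Tuba1c. Exons of the annotated gene Gm49450 overlap those of Tuba1a and Tuba1b on the same strand. Antisense exons overlap 87 nt of Tuba1b and 121 nt of Tubb4b, and whether strand was used in counting is not given in the sources used here. The listed 5′ UTR of Tuba1a is 98 nt long, and that of the same transcript in GENCODE M21 is 250 nt.

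Reads that matched more than 1 place were removed before counting, so only part of each ORF could receive reads. A 30-nt window was called placeable when it occurred nowhere else in the genome, or spanned an exon junction and occurred nowhere else. Of the ORF windows, 95.8% were placeable in Tubb5, 93.7% in Tubb6, 73.1% in Tubb3, 66.8% in Tubg1, 30.8% in Tubb2a, 25.1% in Tubb4b and 24.5% in Tubb2b. In the α-tubulin members the share was 6.65% for Tuba1a, 5.54% for Tuba1c and 2.27% for Tuba1b, which left 30 of 1324 windows. Counts are therefore compared below for the same gene across libraries, and levels are compared between genes only per placeable window. Changes set side by side for different genes rest on different parts of their ORFs. The window has the length of a footprint. Transcriptome reads may be longer, and which positions are placeable at their length was not tested.

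**Figure D1:**
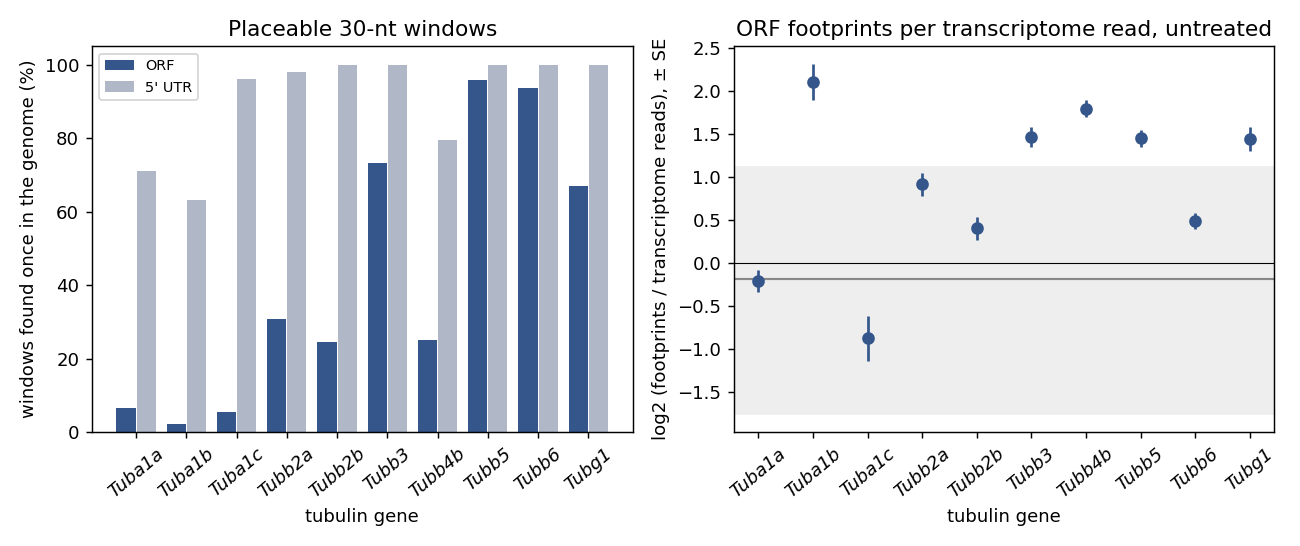
Left, share of 30-nt windows in the ORF (dark bars) and the 5′ UTR (light bars) of each gene that could be placed in the genome, in percent. Right, log2 ratio of ORF footprints to transcriptome reads in untreated cells with its SE, from 2 libraries of each kind, the grey line and band giving the median and the middle 80% of coding transcripts. The α-tubulin ORFs were placeable in 2.27% to 6.65% of windows, and Tuba1b had the highest ratio and Tuba1c the lowest.

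In untreated cells Tubb5, the main β-tubulin isotype of dividing cells, had the most reads of the 10 members and the highest level per placeable window. Its ORF had 40050 and 49102 footprints and 29113 and 59693 transcriptome reads. Per 1000 placeable windows the level of footprints was 36749 ± 1532 normalized reads (SD, n = 2) for Tubb5 and 27063 ± 13189 for Tuba1b, a broadly expressed α-tubulin, and their replicates overlapped. Tubb4b, a broadly expressed β-tubulin, followed at 5676 ± 273, then Tuba1a, an α-tubulin prominent in developing neurons, at 2879 ± 36.3, and Tubb6 at 2676 ± 106. Tubb3, the isotype used as a neuron marker, stood at 1746 ± 31.5, Tubg1 at 1541 ± 21.7 and Tubb2b at 1370 ± 110. The lowest levels were those of Tubb2a at 779 ± 113 and Tuba1c at 728 ± 322, whose replicates overlapped. Between the other neighbours in this order the replicates did not overlap.

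Footprints per transcriptome read, an estimate of how heavily an mRNA is translated, were high for most of the 10 members. Each library was scaled to its total ORF reads on coding transcripts, so the ratio is relative to the average coding read. The ratio was above that average in 8 of 10 members, against a background of 29.9% of all 13717 transcripts tested that were called higher, and below it in 1 member, against 41.2% called lower. The member median was 1.17 on the log2 scale, beside −0.19 over all coding transcripts tested. The log2 ratio was 2.10 ± 0.21 (SE) for Tuba1b, 1.79 ± 0.10 for Tubb4b, 1.46 ± 0.11 for Tubb3, 1.44 ± 0.10 for Tubb5 and 1.44 ± 0.14 for Tubg1. It was 0.91 for Tubb2a, 0.48 for Tubb6 and 0.40 for Tubb2b, with adjusted p = 2.71e-05, 0.000322 and 0.0132. Tuba1c was lower, at −0.88 ± 0.26 with adjusted p = 0.00788, and that call was lost without control replicate 1, when the ratio was −0.45, and without transcriptome replicate 1, when it was −0.70. That of Tubb2b was lost without transcriptome replicate 2, when its ratio was 0.23. Tuba1a, at −0.21 ± 0.13, did not pass the test (adjusted p = 0.159). The 2 most extreme ratios belong to α-tubulin ORFs with few placeable windows, and Tuba1b had 926 and 587 footprints against 320 and 662 transcriptome reads. Whether footprints and transcriptome reads could be placed at the same positions of an ORF was not tested.

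With DMDA-PatA the ORF footprints of all 10 tubulin mRNAs fell under the spike-in scaling. The drug libraries lay below both control libraries for every member. The count of 10 stands against a background of 99.3% of the 12499 transcripts tested that were called lower and 0.056% called higher. The member median of −4.35 on the log2 scale stands beside −4.33 over all coding transcripts. Tubb5 went from 47215 and 44510 normalized reads in the control to 961 and 1321 with the drug. Tubg1 went from 1377 and 1350 to 53.0 and 71.4. Tubb3 went from 1708 and 1665 to 63.1 and 92.5. In these members the groups were far apart beside the spread of the replicates.

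The fall with DMDA-PatA was uneven at the ends of the range. Tuba1b kept 1.46% of its control level, going from 1092 and 532 normalized reads to 8.21 and 15.4, a log2 change of −6.11 ± 0.55 (SE) with adjusted p = 2.68e-27. Tubb5 kept 2.49%, a log2 change of −5.33 ± 0.56 with adjusted p = 8.83e-21. At the other end Tubb2a kept 14.3%, going from 345 and 281 to 32.8 and 56.8, a log2 change of −2.81 ± 0.46 with adjusted p = 9.11e-10. The other 7 members kept between 4.24% (Tuba1c) and 6.42% (Tubb2b). Only 5.6% of coding transcripts had a lower log2 change than Tuba1b, and 91.9% had a lower one than Tubb2a. When every library was instead scaled to the same total of ORF reads, which removes the common fall, Tuba1b and Tubb5 were still lower, by −1.74 ± 0.35 and −0.96 ± 0.19 on the log2 scale (adjusted p = 0.000473 and 0.000391), and Tubb2a was higher, by 1.54 ± 0.30 (adjusted p = 0.000337). The other 7 did not pass that test, Tuba1a at 0.30, Tubb2b at 0.36, Tubb4b at 0.21, Tubb6 at 0.08, Tubb3 at −0.08, Tubg1 at −0.09 and Tuba1c at −0.30.

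**Figure D2:**
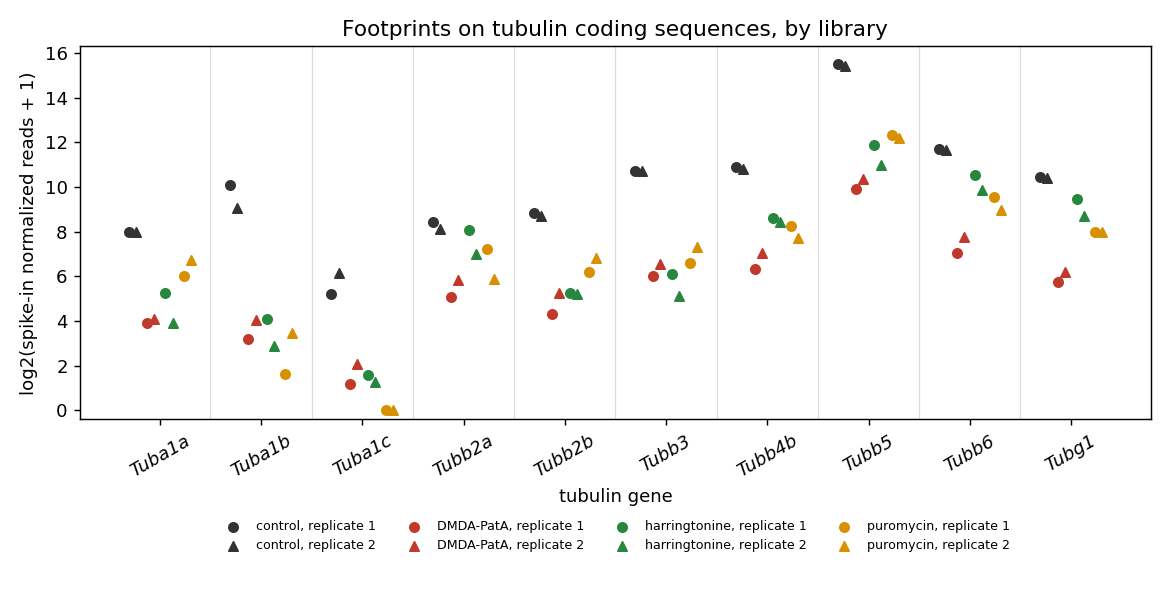
Footprints on the ORF of each tubulin gene in the 8 footprint libraries, as log2 of spike-in normalized reads plus 1, with a circle for replicate 1 and a triangle for replicate 2. Every drug library lay below both control libraries of the same gene, and the puromycin libraries held no read on Tuba1c.

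With harringtonine the tubulin mRNAs differed widely. Footprints fell in 9 of 10 members, against a background of 92.9% called lower and 0.512% called higher, and the amount left ran from 1.39% for Tuba1b to 62.8% for Tubb2a. The ORFs have nearly the same length, but reads came only from placeable windows, 30 in Tuba1b and 402 in Tubb2a. How far the amount left depends on which part of an ORF is placeable was not tested. Tubb3 went from 1708 and 1665 normalized reads to 68.0 and 34.3, which left 3.03% (log2 change −5.06 ± 0.52, SE, adjusted p = 1.48e-20). Tubb6, which shares 86.4% of its coding bases with Tubb3, went from 3381 and 3196 to 1501 and 946, which left 37.2% (log2 change −1.43 ± 0.45, adjusted p = 0.0018). Tubg1 went from 1377 and 1350 to 702 and 420, which left 41.2% (log2 change −1.28 ± 0.44, adjusted p = 0.00406). Tubb2a held 266 and 127 normalized reads beside 345 and 281 in the control, and did not pass the test (log2 change −0.68 ± 0.42, adjusted p = 0.113). Without harringtonine replicate 1 the change of Tubb2a was −1.30 and passed.

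Tuba1b had the largest fall of the members, from 1092 and 532 normalized reads to 16.2 and 6.30. Tuba1c, with 31 and 77 control reads, had 2 reads in each harringtonine library. Tubb5 kept 6.30%, Tubb2b 8.43%, Tuba1a 10.2% and Tubb4b 19.7% of the control level. The replicates of Tuba1a were uneven, with 15.0% left in the same-numbered pair 1 and 5.48% in pair 2. The median log2 change over all coding transcripts was −2.99. Of coding transcripts, 3.3% had a lower log2 change than Tubb3, beside 88.3% for Tubb6, 90.3% for Tubg1 and 95.8% for Tubb2a.

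The spread among members also shows as ratios of reads inside a library, where no scaling between libraries enters. The following pairs were chosen after their values were seen and are given as a description. Tubb6 had 1.98 and 1.92 times the reads of Tubb3 in the control libraries, 2.05 and 2.32 times with DMDA-PatA, 8.0 and 3.15 times with puromycin, and 22.1 and 27.6 times with harringtonine. Tubg1 had 0.806 and 0.811 times the reads of Tubb3 in the control, 0.84 and 0.772 times with DMDA-PatA, 2.70 and 1.62 times with puromycin, and 10.3 and 12.2 times with harringtonine. Tubb5 had 27.6 and 26.7 times the reads of Tubb3 in the control and 15.2 and 14.3 times with DMDA-PatA. With puromycin Tubb5 had 53.8 and 30.1 times, and with harringtonine 54.9 and 59.8 times. These read ratios are compared between libraries and not read as levels, since the genes differ in placeable windows. With every library scaled to the same total of ORF reads, 6 members were lower with harringtonine and 3 were higher. Lower were Tuba1b (−3.50), Tubb3 (−2.38), Tuba1c (−2.25), Tubb5 (−1.31), Tubb2b (−0.80) and Tuba1a (−0.67), and higher were Tubb2a (1.99), Tubg1 (1.41) and Tubb6 (1.28). Tubb4b, at 0.42, did not pass that test (adjusted p = 0.0948). With edgeR's TMM scaling the call for Tuba1a was lost and Tubb4b passed.

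**Figure D3:**
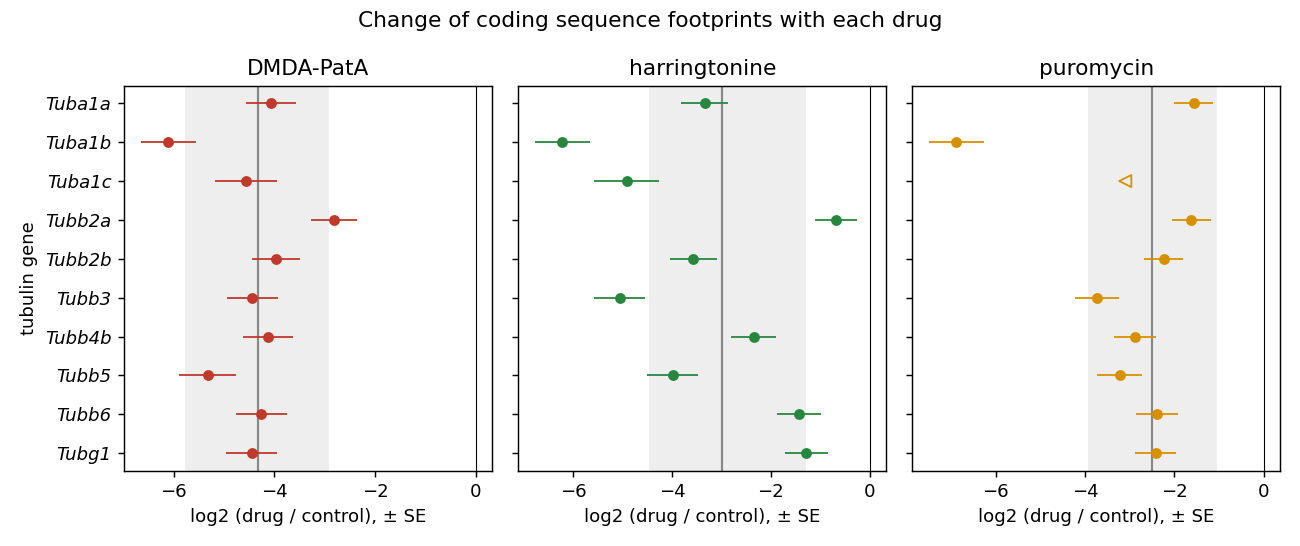
Log2 change of ORF footprints against control for each gene and drug, as the point and its SE from the fit over 8 libraries. The grey line and band give the median and the middle 80% of coding transcripts, and the open triangle for Tuba1c with puromycin is a bound of at least 8.57-fold. With harringtonine the members ran from −6.22 for Tuba1b to −0.68 for Tubb2a.

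With puromycin the ORF footprints of all 10 members fell, against a background of 90.1% called lower and 0.352% called higher. The member median was −2.64 on the log2 scale, also with Tuba1c set to its bound, beside −2.50 over all coding transcripts. Tuba1c had no read in either puromycin library, beside 31 and 77 in the control, which was at least 8.57-fold lower with a floor of 3 reads in a library. Tuba1b had 1 and 8 reads, the first under that floor, beside 926 and 587. This left 0.74% of its normalized level, with 0.189% and 1.87% in the same-numbered pairs (log2 change −6.88 ± 0.61, SE, adjusted p = 6.83e-26), and the log2 change was −8.54 without puromycin replicate 2. Tubb3 kept 7.46%, at 95.1 and 157 normalized reads (log2 change −3.73 ± 0.49, adjusted p = 2.54e-13). Tubb5 kept 10.7%, at 5122 and 4713 normalized reads.

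The members least affected by puromycin were Tuba1a and Tubb2a. Tuba1a held 64.1 and 104 normalized reads beside 251 and 256, which left 33.3% (log2 change −1.57 ± 0.44, adjusted p = 0.000498). Tubb2a held 151 and 57.2 beside 345 and 281, which left 33.2% (log2 change −1.62 ± 0.44, adjusted p = 0.000375), and that call was lost without puromycin replicate 2, when the change was −1.05. Tubb4b kept 13.7%, Tubg1 18.7%, Tubb6 19.1% and Tubb2b 20.9%. With the total of ORF reads set equal, Tuba1c, Tuba1b (−4.40), Tubb3 (−1.27) and Tubb5 (−0.77) were lower, Tuba1a (0.89) and Tubb2a (0.79) were higher, and Tubb6 (0.06), Tubg1 (0.02), Tubb2b (0.22) and Tubb4b (−0.43) did not pass the test.

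The drugs were also compared with each other in the same fit. They act at different steps and were given at different doses, and puromycin for a longer time, so the differences are those of the treatments as given. Footprints were fewer with DMDA-PatA than with harringtonine on 5 members, Tubg1 (log2 difference −3.17 ± 0.48), Tubb6 (−2.83 ± 0.48), Tubb2a (−2.13 ± 0.45), Tubb4b (−1.79 ± 0.46) and Tubb5 (−1.34 ± 0.47), against a background of 52.8%. The call for Tubb5 was lost without harringtonine replicate 1 (−0.85) and without DMDA-PatA replicate 1 (−1.13). No member was called the other way (background 0.432%), though Tubb3 had more normalized reads with DMDA-PatA, 63.1 and 92.5, than with harringtonine, 68.0 and 34.3, a log2 difference of 0.62 ± 0.47 that did not pass the test (adjusted p = 0.252) and whose libraries overlapped. Without harringtonine replicate 1 that difference was 1.17 and passed. DMDA-PatA left fewer footprints than puromycin on 7 members, against a background of 67.4%, from Tuba1a (−2.50 ± 0.49) and Tubb5 (−2.11 ± 0.49) to Tubb4b (−1.26 ± 0.46) and Tubb2a (−1.19 ± 0.46), and no member was called the other way (0.432%). Tubb2a was at −0.36 without puromycin replicate 1 and −0.84 without DMDA-PatA replicate 1, Tubb4b was at −0.96 and −0.93 in the same cases, and Tubb2b was at −1.37 without puromycin replicate 2, none of which passed. Harringtonine left fewer than puromycin on 3 members, Tuba1a (−1.76 ± 0.48), Tubb3 (−1.33 ± 0.47) and Tubb2b (−1.32 ± 0.46), against a background of 9.94%, and more on none (1.2%). Members were called higher under other settings, 4 with TMM and 4 with equal totals (Tubg1, Tubb2a, Tubb6 and Tubb4b in both), 3 without harringtonine replicate 2 (Tubg1 at 1.46, Tubb2a at 1.41 and Tubb6 at 1.26) and 1 with DESeq2 (Tubg1 at 1.14). None of the 3 lower calls held without puromycin replicate 2, when Tuba1a was at −1.35, Tubb3 at −0.91 and Tubb2b at −0.97. Without harringtonine replicate 2 only Tubb2b held, and without puromycin replicate 1 only Tuba1a. With equal totals of ORF reads the counts lower with DMDA-PatA were 2 against harringtonine and 0 against puromycin, and 4 members were higher in each.

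On the 5′ UTRs DMDA-PatA had effects of both signs. Footprints rose on 6 members and fell on 2, against backgrounds of 14.7% called higher and 29.0% called lower among the 6647 5′ UTRs tested, whose median log2 change was −0.48. The member median was 2.66. Tuba1b, Tubb2a, Tubb3 and Tubb6 had 0 to 5 reads per control library and reached the minimum only through drug libraries. They could hardly have been called lower, so the count and the median are not read as a trait of tubulin mRNAs. Tuba1a rose from 137 and 182 normalized reads to 1008 and 2072, a log2 change of 3.27 ± 0.47 (SE) with adjusted p = 2.96e-10. Tubb3 rose from 5.89 and 0.91 to 97.9 and 154 (5 and 1 reads against 155 and 190), a log2 change of 5.27 ± 0.67 with adjusted p = 5.41e-13. Tubb4b rose from 13.0 and 19.0 to 59.3 and 114 (2.41 ± 0.54, adjusted p = 6.38e-05). In each of them the drug libraries lay above both controls.

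Tuba1b, Tubb2a and Tubb6 also passed the test, from controls that were almost empty. For Tuba1b the transcriptome libraries held few reads there too, 3 and 7 beside 320 and 662 on its ORF. Tubb2a had 1 and 0 control reads against 43 and 30, a ratio of 50.6 with a 95% exact counting interval of 8.80 to 2025. Tuba1b had 1 and 0 against 11 and 12, a ratio of 15.9 (2.59 to 657), and Tubb6 had 0 and 2 against 9 and 14, a ratio of 7.97 (1.97 to 69.7). These intervals cover counting error only. They take no account of the minimum of reads, which these 5′ UTRs reached only through drug libraries. The calls and intervals are therefore given as a description and not as support for a rise. Tubb6 did not pass with DESeq2, with adjusted p = 0.0548, and its adjusted p in edgeR was 0.152 without control replicate 1 and 0.0844 without DMDA-PatA replicate 2. That of Tuba1b was 0.117 without control replicate 2.

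Tubb5 and Tubg1 were the members whose 5′ UTR footprints fell with DMDA-PatA. Tubb5 fell from 2976 and 2672 normalized reads to 830 and 1213, a log2 change of −1.47 ± 0.43 with adjusted p = 0.00272. Tubg1 fell from 192 and 171 to 42.9 and 99.0, a log2 change of −1.36 ± 0.46 with adjusted p = 0.0101. Neither call held without control replicate 1, when Tubb5 was at −1.39 (adjusted p = 0.0589) and Tubg1 at −1.28 (adjusted p = 0.09). The call for Tubg1 was also lost without control replicate 2 (−1.44) and without DMDA-PatA replicate 1 (−0.87). Tubb2b, at 0.59 ± 0.43, and Tuba1c, at −0.46 ± 0.58, did not pass the test.

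With harringtonine 5′ UTR footprints rose on 9 of 10 members, against a background of 35.1%, and none fell, against 5.21%. This count also includes Tuba1b, Tubb2a, Tubb3 and Tubb6, which reached the minimum only through drug libraries and could hardly have been called lower. Tubb5 rose from 2976 and 2672 normalized reads to 8228 and 5460, the largest number of 5′ UTR reads on any member (log2 change 1.28 ± 0.43, adjusted p = 0.0103). Tubb2b rose from 441 and 385 to 1366 and 755 (1.36 ± 0.44, adjusted p = 0.00763) and Tuba1a from 137 and 182 to 413 and 401 (1.35 ± 0.45, adjusted p = 0.00913). Tubb3 rose from 5.89 and 0.91 to 34.5 and 32.2 (3.36 ± 0.69, adjusted p = 1.9e-05). Tubb4b rose by 1.54 ± 0.54 and Tuba1c by 1.42 ± 0.55 on the log2 scale. Of the near-empty controls, Tuba1b had 35 and 34 reads with the drug, a ratio of 55.8 (9.68 to 2234), Tubb2a 21 and 23, a ratio of 35.6 (6.06 to 1436), and Tubb6 28 and 27, a ratio of 22.2 (5.87 to 188). These intervals too take no account of the minimum of reads and are given as a description. Tubg1 was the exception, with 166 and 143 normalized reads beside 192 and 171 (log2 change −0.23 ± 0.45, adjusted p = 0.708). The count of 9 was 4 without control replicate 1 and 4 without control replicate 2, and the calls lost in both cases were those of Tuba1a, Tuba1c, Tubb2b, Tubb4b and Tubb5. Without harringtonine replicate 1 the count was 6, with Tuba1c, Tubb2b and Tubb5 lost. With TMM scaling 6 members were higher, with Tuba1a, Tuba1c and Tubb4b lost, and Tubg1 was lower at −0.95.

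**Figure D4:**
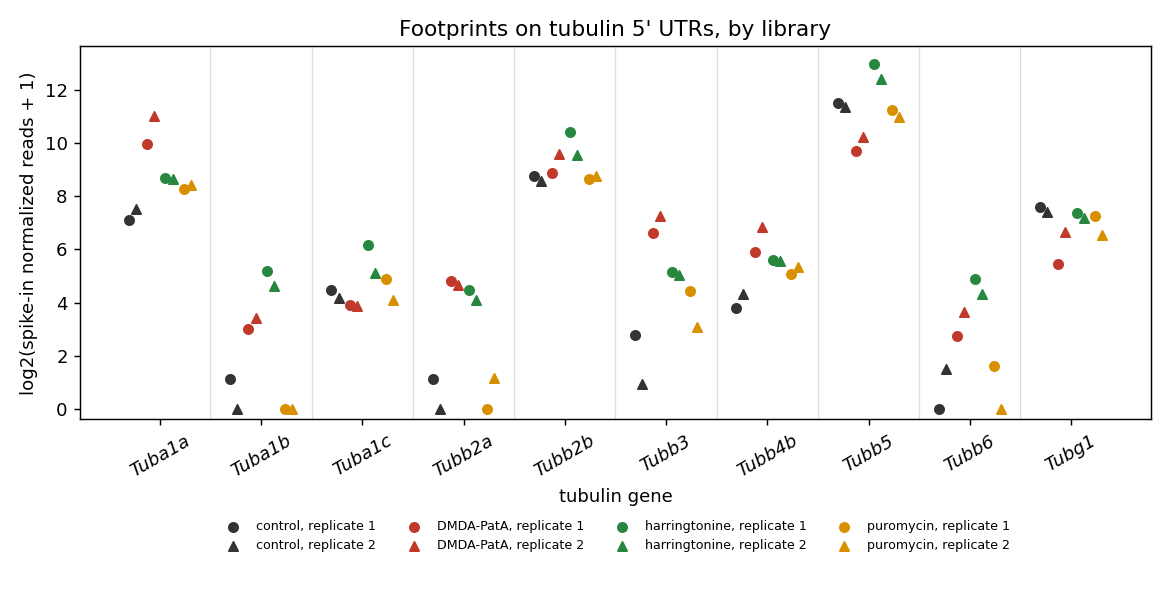
Footprints on the 5′ UTR of each tubulin gene in the 8 footprint libraries, as log2 of spike-in normalized reads plus 1, with a circle for replicate 1 and a triangle for replicate 2. With DMDA-PatA 7 genes lay above and 3 (Tuba1c, Tubb5, Tubg1) below both control libraries; with harringtonine only Tubg1 lay below.

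Puromycin changed the 5′ UTR footprints of no member at the threshold, against backgrounds of 0.557% called higher and 0.406% called lower. At an unadjusted edgeR p under 0.05 there were 3 members, Tuba1a (log2 change 1.03 ± 0.45, adjusted p = 0.304), Tubb3 (2.02 ± 0.80, adjusted p = 0.253) and Tubb4b (1.18 ± 0.57, adjusted p = 0.383), all higher with the drug in both libraries. DESeq2 called 0 of the 7 members it adjusted, and with TMM scaling Tuba1a passed, at 0.97 (adjusted p = 0.049).

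The balance between 5′ UTR and ORF was then tested within libraries, which does not depend on the scaling between them. It moved towards the 5′ UTR in all 10 members with DMDA-PatA, against a background of 93.5% of 6497 transcripts, in all 10 with harringtonine (95.4%) and in 7 with puromycin (78.5%), where Tuba1b, Tubb2a and Tubb6 did not pass. Movement towards the ORF was called in no member, beside 0.139%, 0.139% and 0.0616% of transcripts. The member median was 6.69 on the log2 scale with DMDA-PatA, beside 4.34 over all transcripts tested, 5.25 beside 3.98 with harringtonine and 2.77 beside 2.52 with puromycin, where the fitted values of Tuba1c and Tuba1b rest on regions with no read. The change with DMDA-PatA was 9.62 ± 0.63 (SE) for Tubb3, 7.26 ± 0.46 for Tuba1a, 3.86 ± 0.33 for Tubb5 and 3.01 ± 0.40 for Tubg1. Of the transcripts tested, 99.6% had a smaller change than Tubb3. The 5′ UTRs of Tubb3, Tuba1b, Tubb2a and Tubb6 were almost empty in the control and reached the minimum only through drug libraries. The member medians include them and are not read as a trait of tubulin mRNAs. The change of Tubg1 with harringtonine, 1.10 ± 0.38 (adjusted p = 0.00967), was the smallest of the members and did not pass without harringtonine replicate 2 (0.83, adjusted p = 0.0822).

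As shares of the reads on 5′ UTR and ORF together, the members began from different points. Of the footprints on Tubb2b, 48.8% and 48.2% lay on the 5′ UTR in the control libraries, and 96.1% and 95.4% with DMDA-PatA. For Tuba1a the share was 35.3% (95% exact binomial interval 30.1% to 40.7%) and 41.6% (37.2% to 46.2%) in the control, 98.6% and 99.2% with DMDA-PatA and 91.7% and 96.6% with harringtonine. The transcriptome libraries also had 74.4% and 64.7% of the Tuba1a reads on that 5′ UTR, and 49.4% and 49.8% of those of Tubb2b, in both of which most ORF windows could not be placed. Per 1000 placeable windows the transcriptome level of Tuba1a was 35044 ± 10893 normalized reads (SD, n = 2) on the 5′ UTR and 8256 ± 556 on the ORF. For Tubb2b it was 8930 ± 2112 and 2594 ± 493. Why the 5′ UTR levels were higher was not tested. The windows have the length of footprints, and transcriptome reads may be longer, so these levels are approximate. Tubb5 went from 5.93% and 5.66% to 46.3% and 47.9% with DMDA-PatA and 68.8% and 72.7% with harringtonine, beside 38.2% and 38.6%, and 29.1% and 32.8%, over all coding transcripts. Tubb3 went from 0.344% and 0.0544% to 60.8% and 62.5% with DMDA-PatA. Tubb6, with a 5′ UTR of 41 nt, stayed low, at 0 of 2868 reads (95% exact binomial upper limit 0.129%) and 0.0567% in the control libraries, beside 4.21% and 5.04% after DMDA-PatA.

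**Figure D5:**
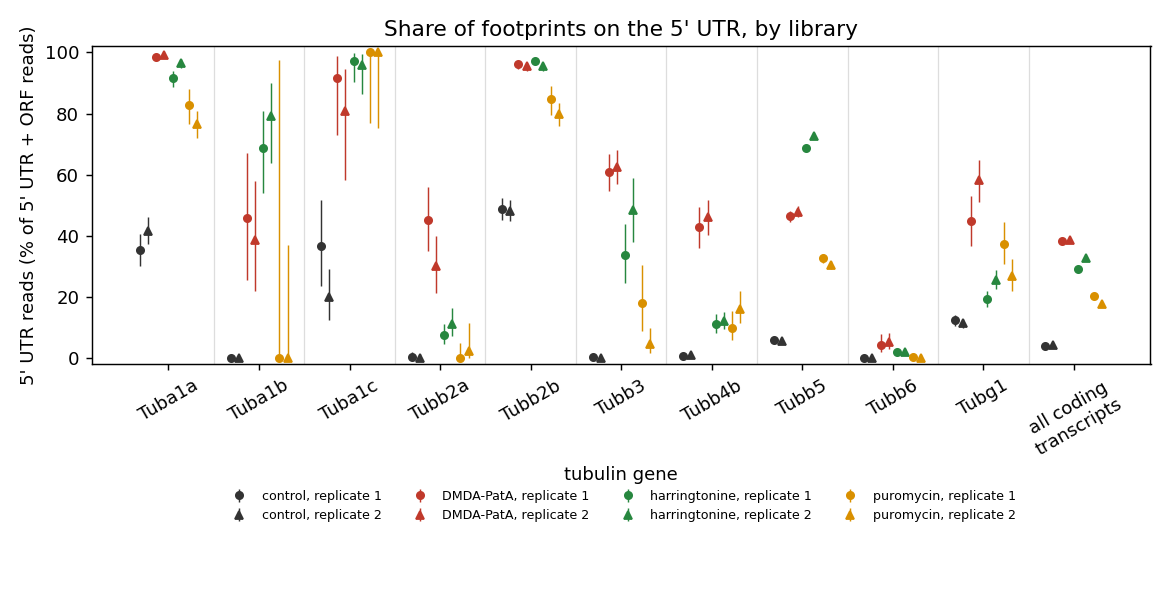
Reads on the 5′ UTR as a percentage of the reads on 5′ UTR and ORF of the same gene, per footprint library, with 95% exact binomial intervals for counting error. Tuba1a and Tubb2b rose above 95% with DMDA-PatA, and Tubb6 stayed at or below 5.04% with each drug.

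ORF footprints of the other tubulin genes in the tables fell too. Of 10 such genes looked for, 7 were listed and 6 passed the minimum, all 6 lower with each drug, where 99.3%, 92.9% and 90.1% of all transcripts tested were called lower, with a median log2 change of −4.99 after DMDA-PatA, −3.24 after harringtonine and −2.86 after puromycin. Tuba4a, an α-tubulin, had 1383 and 1764 control reads and changed by −4.75 ± 0.51, −5.02 ± 0.52 and −3.46 ± 0.48 (SE) in that order, the order used for the genes that follow. Tubd1, the δ-tubulin of centrioles, had 188 and 182 control reads and changed by −5.24 ± 0.56, −2.81 ± 0.47 and −2.62 ± 0.48. In untreated cells footprints per transcriptome read were higher in 3 of the 7 listed genes and lower in 0. Their median was 0.06 on the log2 scale, and 29.9% of all transcripts tested were called higher and 41.2% lower. A high ratio is therefore not read as a trait of all tubulin mRNAs.

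Footprints on mRNAs of the machinery that folds tubulin fell at about the share of all transcripts, 99.3% with DMDA-PatA, 92.9% after harringtonine and 90.1% after puromycin, and these shares are also the background of the lists that follow. In the CCT chaperonin, the ring in which actin and tubulin fold, ORF footprints fell in 8 of 8 genes with DMDA-PatA (median log2 change −4.88) and harringtonine (−4.01) and in 7 with puromycin (−3.66), where Tcp1 did not pass at −0.14. Cct4 changed by −5.73, −2.95 and −2.20 and Cct5 by −4.99, −5.01 and −3.97. Among tubulin cofactors and prefoldin, which carry and assemble the subunits, 13 of 13 fell with DMDA-PatA (median −3.83), 12 with harringtonine (−2.83) and 13 with puromycin (−2.06). The cofactor Tbcd changed by −3.91, −3.0 and −3.82 and the cofactor Tbcb by −4.88, −3.37 and −2.87. Tbca, which holds β-tubulin, did not pass with harringtonine at 0.74 (adjusted p = 0.0812). In untreated cells footprints per transcriptome read were higher in 8 of 8 CCT genes (median 1.12 on the log2 scale) and 11 of 13 folding genes (1.13), beside 29.9% of all transcripts tested and a coding median of −0.19.

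ORF footprints of autoregulation genes, Ttc5, Scaper and the subunits of CCR4-NOT, fell in 12 of 12 cases with each drug, with medians of −4.76, −2.87 and −2.95, but their footprints per transcriptome read were higher in 4 and lower in 5 (median 0.06), beside 29.9% and 41.2% of all transcripts. The counts lower with a drug stand against the same 99.3%, 92.9% and 90.1%. Cnot1, the CCR4-NOT scaffold, changed by −5.81, −4.89 and −3.52 and Cnot10 by −4.76, −3.31 and −2.73. Of the γ-tubulin ring complex, which holds the Tubg1 product, 8 of 8 fell with DMDA-PatA (median −4.72), 7 with harringtonine (−3.42) and 7 with puromycin (−2.78). Tubgcp2 changed by −5.81, −3.90 and −4.09 and Tubgcp4 by −4.80, −2.92 and −2.68. The exception was Mzt1, which rose with harringtonine, from 16 and 18 reads to 55 and 72 (1.59 ± 0.49, adjusted p = 0.00122), and was at 0.02 with puromycin. Genes of tubulin modification fell in 14 of 14 cases with DMDA-PatA (median −4.21), 13 with harringtonine (−2.33) and 11 with puromycin (−2.03). Those that did not pass were Svbp with harringtonine (0.05) and Svbp (−0.43), Vash1 (−0.69) and Agtpbp1 (0.10) with puromycin. In the same list Hdac6, a tubulin deacetylase, changed by −5.67, −3.90 and −4.10 and Ttll12 by −4.33, −4.15 and −4.29. Factors of microtubule assembly and destabilisation, severing enzymes included, fell in 11 of 11 cases with each drug, against the same background, with medians of −5.08, −3.27 and −3.29. Ckap5, a microtubule polymerase, changed by −4.42, −2.68 and −3.29 and Map4, which binds along microtubules, by −4.73, −2.92 and −2.28. Footprints per transcriptome read were higher in 1 and lower in 4 of 8 ring complex genes (median −0.25 on the log2 scale). For 15 modification genes the counts were 3 and 8 (−0.48), and for 11 assembly and destabilisation factors 7 and 3 (0.28). The background was again 29.9% higher and 41.2% lower.

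Finally, the transcripts whose ORF profile over the 8 footprint libraries was nearest to each of 3 members were listed, out of 8407 with at least 100 reads. Distance was Euclidean on log2(normalized reads + 1), centred per gene, and libraries share depth and drug, so this is a description. Nearest to Tubb5 were Maged1 (distance 0.207), Stag2 (0.245) and Rbm45 (0.286), beside a median distance of 1.88. Nearest to Tubg1 were Rbm7 (0.529), Cd9 (0.547) and its fellow member Tubb6 (0.564), beside a median of 2.63. Nearest to Tuba1b were Eef1a1 (1.35), Gm4737 (1.36) and Nono (1.43), beside a median of 5.02, so its nearest transcripts lay farther away than those of Tubb5 and Tubg1.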

How the data were processed

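The members and gene lists were chosen with earlier results of these data known. The authors aligned SOLiD reads to mm10 with LifeScope, kept unique matches of 26 to 36 nt for footprints with a quality of at least 10, used 1 transcript per gene (Ensembl release 76) and assigned reads by P-site offset; Picard 1.38 is named in the submitters' processing notes. The deposited values are a signal: reads per ORF, 5′ UTR and 3′ UTR divided by DESeq2 size factors, from a spike-in RNA for footprints and between replicates for the transcriptome. Every deposited value above 0 was a whole multiple of that of 1 read within 0.01 (100% of values), so reads were recovered.

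Tests used edgeR 4.0.16 (quasi-likelihood) in R 4.3.3 on recovered reads, with the authors' size factors, for every feature that reached 10 reads in 2 or more libraries. All 8 footprint libraries entered 1 fit, footprints per transcriptome read were fitted on the untreated libraries scaled to total coding ORF reads, and p-values were Benjamini-Hochberg adjusted with a threshold of 0.05. The balance of 5′ UTR and ORF was the interaction of region and drug, with library as a term. Alternatives were TMM, equal ORF totals, exchanged size factors of DMDA-PatA and harringtonine, DESeq2 1.42.0, no filter, a replicate block and each library left out. Fits were tested on simulated data. Named were all 10 members, the 2 genes of each list with most control reads, and the 3 nearest transcripts of 3 members (the α- and β-tubulin with most control reads and Tubg1), plus list exceptions named after their values were seen. Windows and sequences came from GRCm38 with GENCODE M21.

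Depths are given in the report; the lowest library held 1027314 reads. The authors call the 2 libraries of a condition biological replicates. The p-values rest only on the spread between libraries of the same condition, estimated over all libraries of a fit and moderated across transcripts. One sequence is not reported here.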

Additional observations from a re-analysis of the deposited data

How the results depend on the processing

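The spike-in scaling carries the general fall on ORFs, and scalings that set libraries equal remove it. The numbers of members called lower were 2 (TMM) and 2 (equal ORF totals) for DMDA-PatA against control, 4 and 4 for puromycin, 5 (TMM) for harringtonine, 2 and 2 for DMDA-PatA against harringtonine and 0 and 0 for DMDA-PatA against puromycin. For 5′ UTRs with puromycin, TMM called 1 higher in place of 0. Signs turned for the following log2 changes, TMM before equal totals. DMDA-PatA against control: Tuba1a 0.16 and 0.30, Tubb2a 1.40 and 1.54, Tubb2b 0.23 and 0.36, Tubb4b 0.071 and 0.21, Tubb6 0.081 (equal totals). Harringtonine: Tubb2a 2.14 and 1.99, Tubb4b 0.57 and 0.42, Tubb6 1.43 and 1.28, Tubg1 1.56 and 1.41. Puromycin: Tuba1a 0.90 and 0.89, Tubb2a 0.79 and 0.79, Tubb2b 0.23 and 0.22, Tubb6 0.057 and 0.056, Tubg1 0.032 and 0.024. DMDA-PatA against puromycin: Tubb2a 0.61 and 0.75, Tubb3 1.04 and 1.19, Tubb4b 0.50 and 0.64, Tubb2b 0.14 and Tubb6 0.024 (equal totals). DMDA-PatA against harringtonine: Tubb5 0.055 and 0.35, Tubb2b 0.87 and 1.16, Tuba1a 0.69 and 0.97. These turns follow from removing the common fall. Tuba1c on the 5′ UTR with DMDA-PatA was at 0.16 (TMM), and the cause was not tested.

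Replicate numbers were not taken as pairs, since the deviations of same-numbered libraries correlated between −0.0156 and 0.0664 over 11157 transcripts. Harringtonine against puromycin called 1 member lower with the replicate block and 1 without the filter, in place of 3, and 0 to 4 with a library left out. In place of 0 it called 4 higher with TMM, 4 with equal totals, 2 with exchanged size factors, 1 with DESeq2 and 0 to 3 with a library left out. Harringtonine on 5′ UTRs called 4 to 9 higher with a library left out and 6 with TMM, which called 1 lower (Tubg1, −0.95). The replicate block changed 2 other calls, those of Tubb2a (DMDA-PatA against puromycin, −1.05) and Tuba1c (5′ UTR, harringtonine, 1.35). Exchanging size factors between DMDA-PatA and harringtonine brought Tubb2a (ORF, harringtonine, −0.996), Tubb2b (5′ UTR, DMDA-PatA, 0.78), Tubb3 (DMDA-PatA against harringtonine, 1.13) and, for harringtonine against puromycin, Tubb5 (−1.06), Tubg1 (0.86) and Tubb6 (0.70) past the threshold. Leaving a library out gave 9 to 10 members lower with DMDA-PatA, 8 to 10 with harringtonine and 9 to 10 with puromycin, with 9 members tested when a control library was left out. With a library left out, signs also turned for differences that had not passed the test. For DMDA-PatA against harringtonine the range was −1.32 to 0.096 for Tuba1a, −0.49 to 0.86 for Tuba1b, −0.37 to 0.91 for Tuba1c and −0.96 to 0.015 for Tubb2b, and for harringtonine against puromycin −0.12 to 2.33 for Tuba1b. Of the 1064 member values compared, 910 kept sign and side of the threshold.

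The main limits are 2 libraries per condition, α-tubulin ORFs that are placeable in few windows, and 5′ UTRs with 1 or 2 control reads.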

Other observations

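Footprints on the 3′ UTRs of the tubulin mRNAs were few in every footprint library. On Tubb5, the member with most reads, the control libraries held 28 and 40, those of DMDA-PatA 16 and 21, those of harringtonine 25 and 25 and those of puromycin 13 and 15, beside 8517 and 17222 transcriptome reads. On each of the other 9 members the 3′ UTR held between 0 and 8 reads in every footprint library. Of the 30-nt windows there, 3.36% were placeable in Tubb4b, 13.3% in Tuba1b and 18.1% in Tuba1c, which limits the reads that can be counted. In the rest the share was 54.6% (Tubb2b) or more. The transcriptome level on the Tubb4b 3′ UTR was 0.33 normalized reads, so its lack of footprints is not informative.

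Tuba1a had 1304 and 2152 transcriptome reads on a listed 5′ UTR of 98 nt, beside 449 and 1173 on its ORF. Per 1000 placeable windows this was a level of 35044 ± 10893 normalized reads (SD, n = 2) on the 5′ UTR and 8256 ± 556 on the ORF, and Tubb5 had 27506 ± 4099 and 33494 ± 3474. Here too the windows have the length of footprints, and placeable positions for longer transcriptome reads were not tested.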
